A study of Mus musculus with 6 samples.

Results

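The 4 genes Tshr, Thra, Thrb and Dio2 of the thyroid hormone axis were followed in single nuclei of mouse white adipose tissue, out of 56980 genes listed in the count tables. They were chosen by symbol, with their values in these libraries already known, so their levels and differences are given below as a description, without a test. The nuclei came from subcutaneous (inguinal) adipose tissue, SAT, and visceral (gonadal) adipose tissue, VAT, of female C57BL/6J mice, the sex and strain as the study's methods give them; the labels name no genotype or treatment. There were 3 groups of 2 libraries each, young SAT (labelled 2 months), old SAT and old VAT (both labelled 24 months), and the comparisons ask how the axis differs with age within SAT and between depots in old animals. For the old animals the study's text states a somewhat higher age than the 24 months of the labels. VAT at 2 months was not analysed here. Since 2 mice were used per age, the SAT and VAT libraries at 24 months may come from the same animals, and the labels do not say which belong together. All libraries carry 1 date label.

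In the axis, thyrotropin (TSH) from the pituitary binds TSHR, a G-protein-coupled receptor best known from thyroid follicle cells, where it raises cAMP and drives hormone synthesis. Fat cells also express TSHR, and TSH has lipolytic activity on them. The thyroid releases mainly the prohormone T4, which the selenoenzyme DIO2 converts to the active hormone T3 inside cells; in brown fat this step is part of cold-induced heat production. T3 acts through the nuclear receptors THRA and THRB, which bind DNA together with a retinoid X receptor and switch between corepressors and coactivators.

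On GRCm39, the build of the counts, Tshr (ENSMUSG00000020963) lies on the plus strand of chromosome 12 at chr12:91351337-91517124, and Dio2 (ENSMUSG00000007682) on the minus strand of the same chromosome at chr12:90691322-90705819, 645.518 kb before Tshr. Thra (ENSMUSG00000058756) lies on the plus strand at chr11:98629109-98661924, where its end overlaps the antisense gene Nr1d1 by 3173 bases. Thrb (ENSMUSG00000021779) lies on the minus strand at chr14:4429815-4809435 and overlaps 5 other annotated genes, 4 of them on the opposite strand. The sources used here do not say whether reads were counted by strand, so reads of Thra and Nr1d1 in the shared stretch, and of Thrb and its antisense neighbours, may not be told apart.

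RefSeq promoter windows (GRCm38.p6, the 250 bases before the annotated start) were matched for Thrb and Dio2 but not for Tshr and Thra. They are shown because each holds a motif of the axis itself. In the Thrb window at chr14:17660710-17660959 (plus strand) the capitals mark AGGTCA, the half-site bound by thyroid hormone receptors, at positions -184 to -179 from the start; in the Dio2 window at chr12:90739039-90739288 (minus strand) they mark TGACGTCA, the cAMP response element, at -95 to -88.
Thrb: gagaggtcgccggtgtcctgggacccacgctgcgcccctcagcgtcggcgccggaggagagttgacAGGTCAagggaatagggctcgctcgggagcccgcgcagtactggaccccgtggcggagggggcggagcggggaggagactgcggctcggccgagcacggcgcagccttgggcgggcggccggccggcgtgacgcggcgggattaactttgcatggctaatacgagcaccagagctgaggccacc
Dio2: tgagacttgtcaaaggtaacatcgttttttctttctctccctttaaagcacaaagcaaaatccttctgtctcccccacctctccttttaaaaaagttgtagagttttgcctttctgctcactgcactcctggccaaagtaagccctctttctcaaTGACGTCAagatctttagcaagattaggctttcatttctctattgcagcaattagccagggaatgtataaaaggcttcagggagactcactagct
Searched on both strands, AGGTCA was found in 14.0% and TGACGTCA in 1.55% of 32851 windows of this length, so the half-site is common and the cAMP response element is not. The Thrb window also held 3 GC boxes (GGGCGG, in 32.7% of windows), and the Dio2 window held none. The 2 builds carry Thrb on opposite strands. The window of a second Thrb start farther downstream held no AGGTCA and 1 E-box (CACGTG, in 6.02% of windows). These are matches of letters, and no binding was measured.

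The 6 libraries held 8061862 to 16226690 unique molecular identifiers (UMIs, counted RNA molecules) in 50859 barcodes, of which 27074 passed the study's filters, with medians of 1380 to 1878 UMIs per nucleus. At most 0.769% of a library's barcodes recurred in another library. The labels call the cells adipocytes, but nuclei classed as adipocyte-like, from 8 markers that were all higher inside the class than outside it, were 3.39% to 63.8% of a library; they are called adipocytes below, and the other classes were named from their markers in the same way. Their numbers were 890 and 509 in the SAT 2-month libraries, 676 and 2106 in the SAT 24-month libraries, and 2829 and 172 in the VAT 24-month libraries. The fewest, 172, limit what VAT replicate 2 can show. None of the 4 genes, nor any gene of the pathway list below, was used to cluster or name the nuclei. Levels are given as CPM, a gene's UMIs per 1000000 UMIs summed over a class in a library, and intervals are exact Poisson or Clopper-Pearson 95% intervals that cover counting error only.

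Tshr, the TSH receptor, was higher in adipocytes than in the other named classes and was far higher there in old than in young animals. Adipocytes held 86.8% of its 34582 UMIs over all libraries, and from 45.4% (VAT replicate 2) to 93.2% (VAT replicate 1) of those of a library, a share that also depends on how many nuclei of a library were adipocytes. In SAT at 2 months its level in adipocytes was 183 CPM (interval 164 to 204) in replicate 1 and 90.0 CPM (71.4 to 112) in replicate 2. In SAT at 24 months it was 1779 CPM (1711 to 1849) and 1804 CPM (1769 to 1840), and in VAT at 24 months it was 2020 CPM (1989 to 2051) and 2623 CPM (2475 to 2777). The 4 old libraries lay far above the 2 young ones without overlap, while the replicates at 2 months differed by more than their counting error. The group means were 137 ± 66.1 CPM, 1792 ± 17.7 CPM and 2321 ± 426 CPM (SD, n = 2 libraries each). The fitted log2 difference between SAT at 24 and at 2 months was 3.85 ± 0.40 (SE), the 62nd highest of 12969 genes tested in adipocytes, of which 13.3% were called at an adjusted p under 0.05. Since Tshr was chosen for this contrast, nothing is read from that place. Between VAT and SAT at 24 months the log2 difference was 0.37 ± 0.35 (0.154% of genes called), about the size of its SE.

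**Figure D1:**
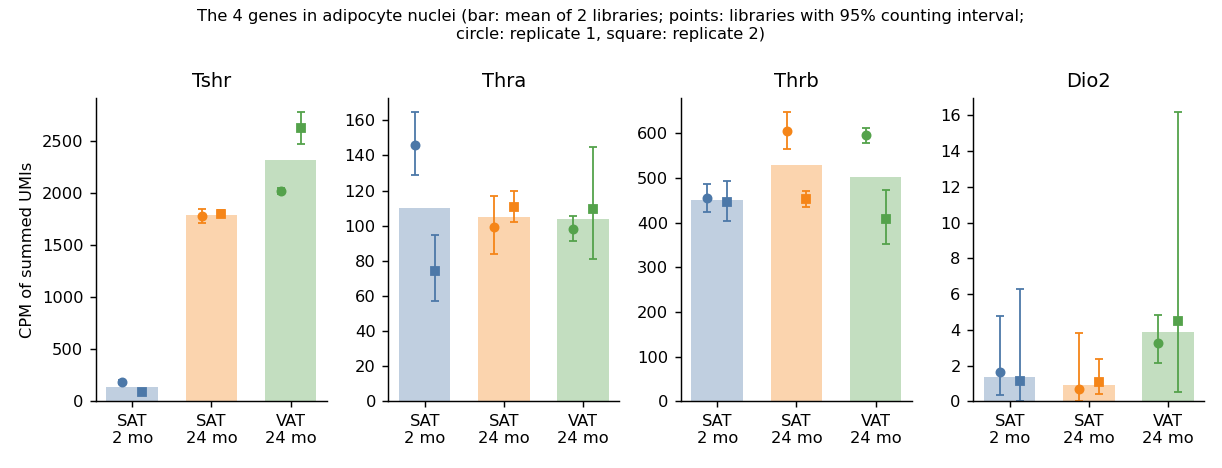
Levels of the 4 genes in adipocyte nuclei in each library (CPM of summed UMIs, linear axes from 0), with bars for the mean of 2 libraries, circles for replicate 1, squares for replicate 2 and vertical lines for the 95% counting interval. Tshr is at 90.0 to 183 CPM in SAT at 2 months and at 1779 to 2623 CPM in the 4 old libraries, whereas Thra and Thrb overlap between the groups and Dio2 stays under 5 CPM.

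The share of nuclei with a Tshr UMI, which itself depends on the mean level (0.380 and 0.157 UMIs per young SAT nucleus, 3.81 to 6.81 per old nucleus), differed in the same direction. At 2 months 20.3% and 10.4% of adipocyte nuclei had a Tshr UMI, against 83.9% and 86.6% in SAT and 86.4% and 84.3% in VAT at 24 months. After each nucleus was thinned to 1000 UMIs the shares were 12.5% and 7.12%, then 72.5% and 72.9%, then 73.8% and 76.5%, so the gap was present at equal depth. T cells, a class in which the receptor is not known to be abundant, had a Tshr UMI in 1.15% to 3.52% of nuclei at median depths of 1253 to 1464.5 UMIs. The median adipocyte nucleus held 0 Tshr UMIs in both young libraries and 3 to 5 in the old ones. In the old libraries the tenth of adipocyte nuclei with the most Tshr held 32.8% to 34.1% of its UMIs, and the highest single nuclei held 36 to 47 UMIs.

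The higher level at 24 months was found in each of the 5 adipocyte clusters with nuclei at both ages. The clusters were unequal between ages: the Gm31517-led cluster made up 25.8% and 26.3% of adipocytes in SAT at 2 months and 40.8% and 37.0% at 24 months, and the Fam13a-led cluster was the largest at 2 months. In VAT replicate 2 a Col5a3-led cluster found in no other library held 43.0% of the adipocytes. Within clusters of at least 20 nuclei, Tshr ranged from 27.4 to 312 CPM at 2 months and from 936 to 3122 CPM at 24 months, again without overlap. In the Gm31517-led cluster alone it was 276 and 107 CPM in young SAT, 1754 and 1833 CPM in old SAT, and 2128 and 2376 CPM in old VAT. The log2 difference with age there was 3.31 ± 0.43. The Col5a3-led cluster stood at 2836 CPM.

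Within old adipocytes, Tshr was detected in fewer of the nuclei with lipogenic RNA in some libraries. In VAT replicate 1, thinned to 1000 UMIs, 51.5% of 299 nuclei with a UMI of Fasn (fatty acid synthase) had a Tshr UMI (interval 45.7% to 57.3%), against 77.3% of the 2530 nuclei without one (75.6% to 78.9%). For Acacb, an acetyl-CoA carboxylase, the shares there were 61.9% and 77.4%, but they were 70.8% and 73.7% and 70.4% and 73.6% in the old SAT libraries, with overlapping intervals, and 82.4% and 77.4% in VAT replicate 2. In SAT at 24 months the shares with and without Fasn were 65.2% and 73.7% in replicate 1 and 64.5% and 75.6% in replicate 2, and only in the second do the intervals lie apart. VAT replicate 2 went the other way for Fasn (85.2% of 27 nuclei and 76.6% of 145), within its wide intervals. With and without a UMI of Thrb the shares were 75.9% and 73.7% in VAT replicate 1 and 75.9% and 72.1% in SAT replicate 2, and for Pde3b, the cGMP-inhibited phosphodiesterase of fat cells, they were 75.6% and 72.5% and 74.2% and 71.3%. In VAT replicate 2 the shares with and without Pde3b were farther apart, at 89.7% (81.3% to 95.2%) and 65.9% (54.8% to 75.8%). Nuclei of 1 library are not replicates, and these shares were not tested.

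In the other classes Tshr was lower. In each of the 6 libraries adipocytes had the highest level of the named classes with at least 20 nuclei. Macrophages had 6.35 and 6.55 CPM in SAT at 2 months, 142 and 211 CPM in SAT at 24 months, and 484 and 60.0 CPM in VAT. Endothelial nuclei had 19.1 and 13.4 CPM, then 138 and 295 CPM, then 447 and 48.7 CPM. Fibro-adipogenic progenitors (FAPs) had 11.3 and 5.43 CPM, then 0 and 78.4 CPM, then 70.7 and 15.8 CPM. T cells had 7.83 and 9.58 CPM at 2 months, 9.55 and 46.6 CPM in SAT at 24 months and 18.8 CPM in VAT replicate 2, the only VAT library with enough T-cell nuclei. Relative to the adipocytes of the same library, the median was 12.6% in endothelial nuclei, 7.63% in macrophages, 3.92% in FAPs and 2.58% in T cells, and the ranges of these classes overlapped between libraries. The levels depended on how nuclei were classed: the median over libraries went from 93.2 to 24.3 CPM in endothelial nuclei and from 101 to 314 CPM in macrophages without Harmony, and to 46.3 CPM in macrophages without the 5% highest doublet scores.

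**Figure D2:**
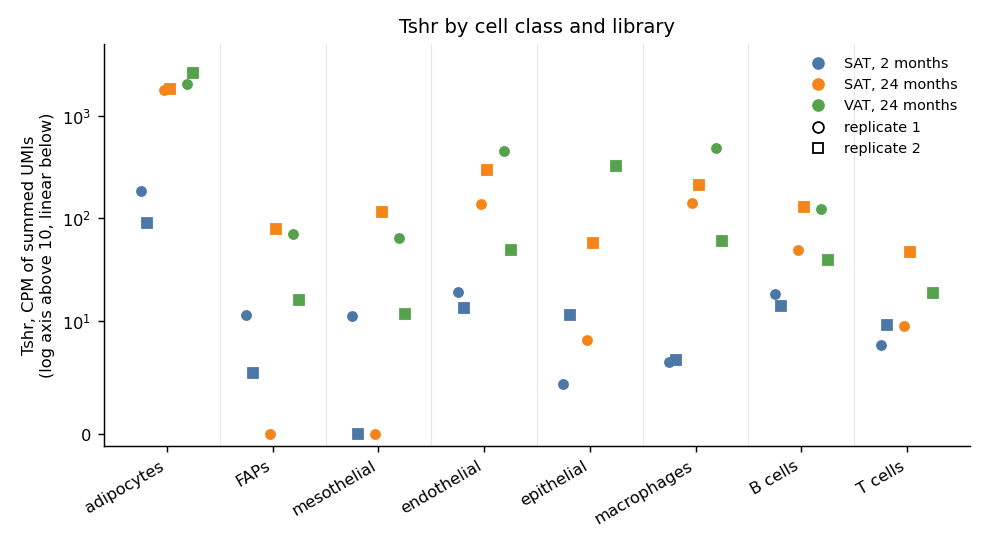
Tshr in 8 classes and each library with at least 20 nuclei of the class (CPM of summed UMIs, log axis above 10 and linear below), coloured by group, with circles for replicate 1 and squares for replicate 2. Adipocytes are highest in each library, and at 24 months macrophages and endothelial nuclei lie at 48.7 to 484 CPM, with epithelial nuclei of VAT replicate 2 at 321 CPM.

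The summed level of the 8 adipocyte markers differed along with these values at 24 months. In macrophages it was 1035 and 793 CPM at 2 months, 1544 and 3261 CPM in SAT at 24 months, and 4277 and 561 CPM in VAT, and the 4 old libraries stood in the same order by markers and by Tshr. Macrophages held 0.613 and 0.826 Tshr UMIs per 100 marker UMIs at 2 months and 6.46 to 11.3 at 24 months, while adipocytes held 1.44 and 0.715 at 2 months and 11.6 to 21.5 at 24 months. In endothelial nuclei the ratio was 0.791 and 0.535, then 4.21 to 7.93. The fitted log2 differences with age in SAT were 4.83 ± 1.00 in macrophages, 3.97 ± 1.18 in endothelial nuclei, 2.64 ± 1.14 in FAPs, 2.43 ± 0.59 in B cells, 2.20 ± 0.72 in epithelial nuclei and 1.38 ± 0.60 in T cells. The part of carried-over adipocyte RNA in these values was not tested.

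**Figure D3:**
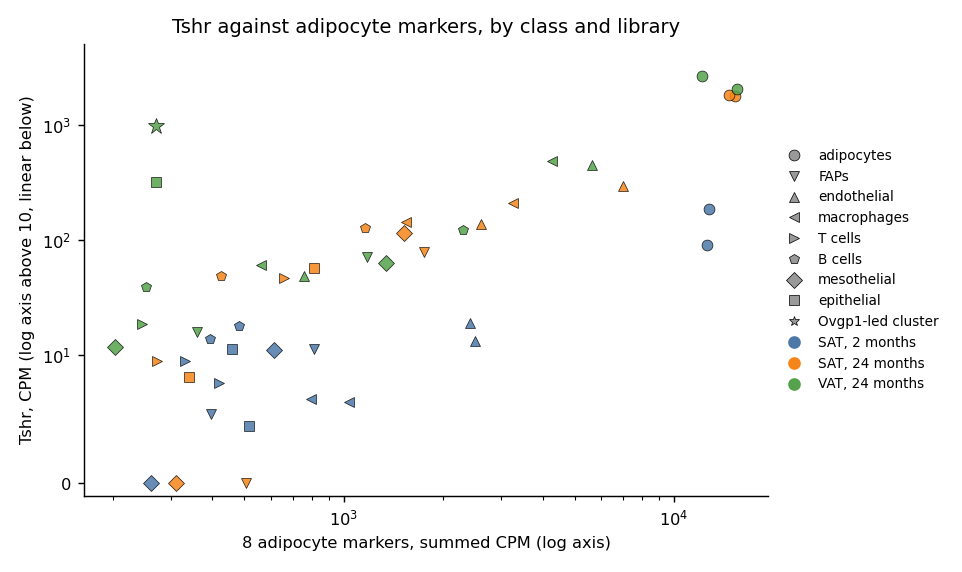
Tshr (CPM, log axis above 10 and linear below) against the summed CPM of 8 adipocyte markers (log axis) for each class and library, with shapes for classes and colours for groups. At 24 months most classes stand higher in Tshr the more adipocyte marker RNA they hold, and the Ovgp1-led cluster of VAT replicate 2 stands apart, with 979 CPM of Tshr at 269 CPM of markers.

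One population outside the named classes carried Tshr with little adipocyte RNA. A cluster led by Ovgp1 (oviductal glycoprotein), with 431 nuclei in VAT 24-month replicate 2, had too few markers of any class above 2-fold and was left unnamed. It held 858 Tshr UMIs (979 CPM), and 62.9% of its nuclei had one. It had 364 Tshr UMIs per 100 adipocyte marker UMIs, against 21.5 in the adipocytes of the same library. Among its 289 nuclei with no adipocyte marker UMI, 62.6% still had Tshr, compared with 2.56% of 390 such T-cell nuclei. Epithelial nuclei of the same library had 321 CPM, with Tshr in 26.0% of 73 nuclei without a marker UMI. Markers of ovary or oviduct, summed over all nuclei, were at 20.2 and 2335 CPM in the VAT libraries, the higher in replicate 2, and at 14.9 to 29.6 CPM in the SAT libraries. In the adipocyte sums these markers were at 257 CPM in VAT replicate 2 and at 11.1 to 38.3 CPM in each other library. Their part in the Tshr level of those adipocytes was not tested. All Tshr values of adipocytes were given above by library, so they can be read with and without replicate 2 of VAT.

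Other unnamed clusters also held Tshr at 24 months. An Acacb-led cluster with B-cell and adipocyte markers had 82.0 and 28.2 CPM in SAT at 2 months and 1471 and 2120 CPM at 24 months. A cluster led by Gm10800 and Gm10801 had 127 and 3175 CPM in SAT and 2248 and 165 CPM in VAT at 24 months. A further cluster, led by Cxcl14 and Myh11, a smooth muscle myosin, had 0 and 7.28 CPM in SAT at 2 months, then 139 and 212 CPM, then 280 and 506 CPM in VAT. These clusters hold markers of more than 1 class or of none, and the share of mixed nuclei in them was not tested.

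Of the genes within 1 Mb of Tshr, 6 could be tested in adipocytes and 1 was called (13.3% of all genes were), Cep128, which is named here after its values were seen. Cep128 encodes a centriole protein, and its start lies head to head with that of Tshr, 88 bases away on the minus strand (chr12:90965149-91351248, ENSMUSG00000061533). In adipocytes it had 43.4 and 50.6 CPM in SAT at 2 months, 113 and 103 CPM in SAT at 24 months, and 108 and 139 CPM in VAT. The log2 fold change with age in SAT was 1.37 ± 0.26 (adjusted p = 0.00553, edgeR quasi-likelihood test), and between VAT and SAT it was 0.17 ± 0.25 (adjusted p = 0.947). In T cells, where Tshr was far lower than in adipocytes, Cep128 stood at 108 and 97.6 CPM at 2 months and 96.7 and 56.5 CPM at 24 months in SAT. In epithelial nuclei of SAT, also low in Tshr, it stood at 25.6 and 28.1 CPM at 2 months and 56.3 and 49.4 CPM at 24 months. In the Ovgp1-led cluster it stood at 165 CPM, and 73 of the 90 nuclei with a Cep128 UMI also had Tshr.

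Thrb, the receptor isoform known for feedback on TSH and for metabolic targets in liver, was also rich in adipocytes, with only skeletal muscle and the mesothelium of VAT replicate 2 above them in a library, and its differences between groups were close to or under their SE. Adipocytes held 64.0% of its 14835 UMIs over all libraries, and from 5.83% to 86.3% of those of a library, the lowest in VAT replicate 2, where mesothelial nuclei held 59.8%. Its level was 455 and 447 CPM in SAT at 2 months, 606 and 454 CPM in SAT at 24 months, and 596 and 410 CPM in VAT at 24 months. The range of VAT enclosed the young libraries, and replicate 2 of SAT at 24 months lay beside them. The log2 differences were 0.40 ± 0.31 with age and -0.06 ± 0.31 between depots. A Thrb UMI was found in 42.2% to 63.9% of adipocyte nuclei, or 28.3% to 40.3% after thinning, against 2.76% to 5.95% of T-cell nuclei.

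Outside adipocytes, Thrb stood out in 2 classes. In mesothelial nuclei, the lining of the visceral cavities, it had 167 and 70.0 CPM in SAT at 2 months, 71.1 and 143 CPM in SAT at 24 months, and 355 and 477 CPM in VAT, so the VAT libraries lay above all SAT libraries. The log2 difference between VAT and SAT at 24 months was 2.20 ± 0.56 (6.20% of genes were called in this class), and 1630 of the mesothelial nuclei came from VAT replicate 2. The SAT values at 24 months rest on 52 and 81 nuclei with 8 and 21 Thrb UMIs. Without Harmony only 2 libraries held enough mesothelial nuclei, so the difference could not be computed there. In skeletal muscle, 25 nuclei of SAT 24-month replicate 2 had 1073 CPM and 36 nuclei of VAT replicate 2 had 161 CPM, a wide gap on few nuclei. FAPs had 150 and 130 CPM, then 325 and 172 CPM, then 205 and 250 CPM, with an age difference of 0.79 ± 0.44. Macrophages had 108 and 98.3 CPM, then 108 and 148 CPM, then 244 and 183 CPM. Epithelial nuclei had 24.98 to 44.3 CPM in SAT but 308 CPM in VAT replicate 2, and T and B cells stayed between 17.3 and 69.5 CPM.

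Thra, the isoform known as the main receptor in heart, bone and brain, was spread over the stromal classes and did not peak in adipocytes, which held 36.8% of its 5191 UMIs over all libraries and 3.50% to 68.9% of those of a library. In adipocytes it had 146 and 74.3 CPM in SAT at 2 months, 99.5 and 111 CPM in SAT at 24 months, and 98.1 and 110 CPM in VAT. The 2 young replicates enclosed all the old libraries. The log2 differences were 0.06 ± 0.30 with age and -0.02 ± 0.31 between depots. FAPs were above the adipocytes of their own library in each of the 6 libraries, at 117% to 194% of their level: 221 and 130 CPM, then 117 and 157 CPM, then 183 and 213 CPM. Mesothelial nuclei (62.2 to 199 CPM), endothelial nuclei (26.7 to 143 CPM) and epithelial nuclei (66.4 to 98.2 CPM) overlapped with adipocytes. Macrophages had 16.7 to 92.1 CPM, B cells 21.3 to 34.8 CPM and mature dendritic cells 5.73 to 30.5 CPM.

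**Figure D4:**
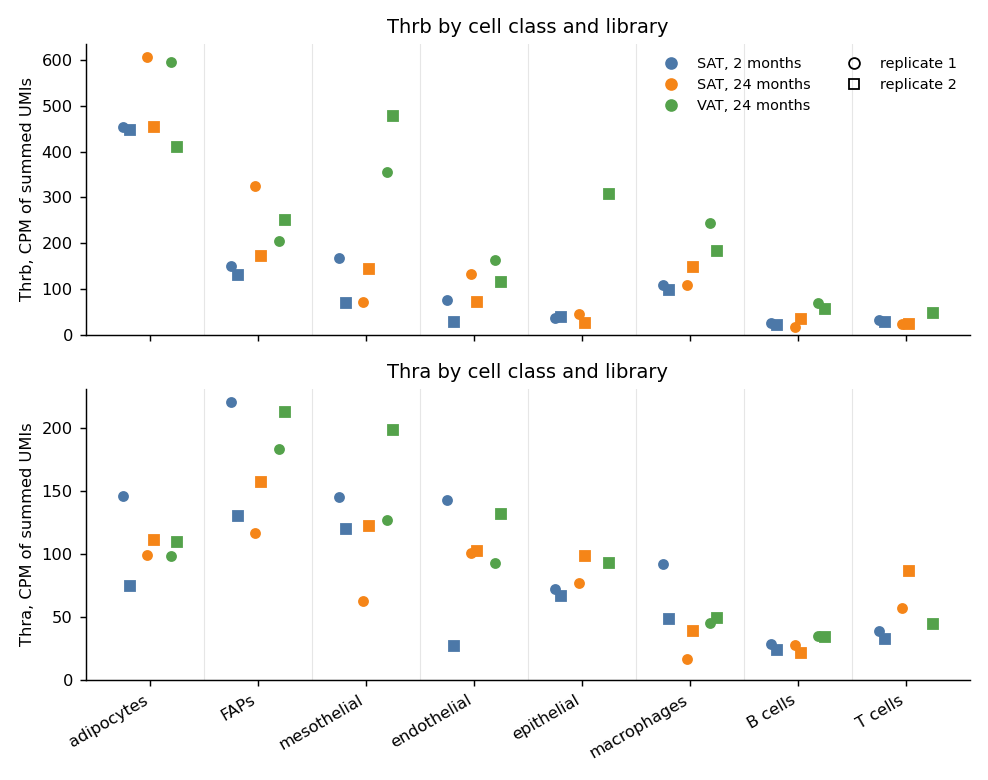
Thrb and Thra in 8 classes and each library with at least 20 nuclei of the class (CPM of summed UMIs, linear axes from 0), coloured by group, with circles for replicate 1 and squares for replicate 2. Thrb is at 410 to 606 CPM in adipocytes and at 355 and 477 CPM in mesothelial nuclei of VAT, whereas Thra is at 117 to 221 CPM in FAPs and at 74.3 to 146 CPM in adipocytes.

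In T cells Thra had 39.1 and 32.6 CPM in SAT at 2 months and 57.3 and 86.4 CPM at 24 months, a log2 difference of 0.99 ± 0.28 (13.2% of genes were called in this class). The antisense neighbour Nr1d1, the clock repressor REV-ERB alpha, was also higher there, at 16.5 and 22.7 CPM against 77.6 and 49.9 CPM (log2 fold change 1.84 ± 0.32, adjusted p = 0.000528, edgeR). The T-cell class was made up differently at the 2 ages: a Scart1-led cluster held 12.6% and 11.4% of its nuclei at 2 months and 61.0% and 63.3% at 24 months. Within that cluster Thra had 56.9 and 69.7 CPM at 2 months and 70.7 and 119 CPM at 24 months (0.52 ± 0.39), and Nr1d1 differed by -0.14 ± 0.34 (adjusted p = 0.925). In adipocytes Nr1d1 differed by 0.05 ± 0.36 with age (adjusted p = 0.947) and by 0.07 ± 0.36 between depots (adjusted p = 0.990).

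Dio2, the activating deiodinase, was close to the detection limit, with 101 UMIs in all nuclei, and could not be tested. In adipocytes it had 3 and 1 UMIs in SAT at 2 months, 1 and 6 in SAT at 24 months, and 26 and 2 in VAT at 24 months. These correspond to 1.63 CPM (0.336 to 4.76) and 1.13 CPM (0.0285 to 6.27), then 0.691 CPM (0.0175 to 3.85) and 1.10 CPM (0.403 to 2.39), then 3.29 CPM (2.15 to 4.82) and 4.48 CPM (0.542 to 16.2). Both VAT libraries lay above the 4 SAT libraries, with group means of 0.894 ± 0.288 CPM in SAT and 3.88 ± 0.840 CPM in VAT at 24 months (SD, n = 2 libraries each), but the counting intervals overlap and 1 VAT value rests on 2 UMIs of 1 nucleus. Among the other named classes the largest counts were 13 UMIs in the 1630 mesothelial nuclei of VAT replicate 2, 7 in epithelial nuclei of young SAT replicate 2, 5 in macrophages of VAT replicate 2 and 4 in mature dendritic cells of old SAT replicate 1, and unnamed clusters held 16 UMIs, 10 of them in VAT replicate 2.

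The Dio2 of VAT replicate 1 was gathered in a small set of adipocytes. Of its 26 UMIs, 22 lay in the Acacb-led cluster that also had Ppara and Gpd1 among its leading genes (628 nuclei, 16.8 CPM). The same cluster held 106 of the 138 UMIs of Ucp1, the uncoupling protein of brown and beige fat cells, in this library. Of the 15 Dio2-positive nuclei of the cluster, 8 were among its 50 Ucp1-positive nuclei. The other 5 libraries had 0 or 1 Ucp1 UMI in all their adipocytes, and none of their Dio2-positive nuclei had Ucp1. In the 172 adipocytes of VAT replicate 2 Ucp1 had 0 UMIs, for which the limit used here for a count of 0, 3 UMIs rather than the exact interval, is 6.71 CPM, beside 17.5 CPM in replicate 1. Replicate 2 held 19 nuclei of the Acacb-led cluster, against 628 in replicate 1. Ucp1 and Dio2 were set side by side after their values were seen.

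The patterns of the 3 measurable genes over classes and libraries were unlike one another. Over 62 sums of a class in a library, log2(CPM + 1) of Tshr correlated with that of Thra at 0.09 and of Thrb at 0.24, and Thra with Thrb at 0.45. Among 14752 genes, those most like Tshr were the non-coding RNAs A530053G22Rik (0.80), Gm16168 (0.80) and Gm3289 (0.79). Most like Thra were Plxdc2 (0.83), a membrane protein, Calu (0.80), a calcium-binding protein of the secretory pathway, and Tbc1d19 (0.79). Most like Thrb were the microRNA host gene Mir99ahg (0.83), Negr1 (0.77), a cell adhesion protein, and 4732471J01Rik (0.76), a non-coding RNA that overlaps the adipocyte lipase gene Lipe on the other strand. These are Pearson correlations over sums that share libraries and depth, given without a test.

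In the wider pathway, 59 other genes were listed and 47 were expressed enough to be tested in adipocytes. With age in SAT, 3 rose and 5 fell at an adjusted p under 0.05 (edgeR), 17.0% of those tested beside 13.3% of all 12969 genes, so the list is near the background. The median log2 fold change was -0.03 in the list and -0.005 over all genes. No TSH receptor ligand (0 of 4), no other deiodinase (0 of 2) and no binding protein (0 of 3) was expressed enough to test; their most abundant members were Tshb, the TSH beta chain, at a mean of 0.387 CPM, Dio1 at 0.209 CPM and Crym, a cytosolic T3-binding protein, at 1.28 CPM. Of the thyroid hormone transporters, the most abundant that was not called was Slc16a10, which also carries aromatic amino acids (0.74, adjusted p = 0.130).

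Among 11 receptor partners and cofactors, the retinoid X receptors Rxra and Rxrg went in opposite directions, while the remaining one of the family was not called. Rxra fell from 69.5 and 74.3 CPM to 31.1 and 35.7 CPM (-0.94 ± 0.27, adjusted p = 0.0375), and Rxrg rose from 19.5 and 15.8 CPM to 28.3 and 42.6 CPM (1.16 ± 0.35, adjusted p = 0.0462). Neither call was stable: Rxra was called in 7 and Rxrg in 6 of 14 alternatives, and both were lost with DESeq2 and without either SAT 2-month library. The corepressor Ncor1 was not called (0.73, adjusted p = 0.0961). Of 6 genes that make DIO2 or control its ubiquitination, Sephs2, which makes the selenium donor of selenoproteins, fell from 57.5 and 45.0 CPM to 6.22 and 15.5 CPM (-1.98 ± 0.40, adjusted p = 0.00784), and the deubiquitinase Usp33 was not called (-0.80, adjusted p = 0.0549).

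Of 14 genes downstream of TSHR, 2 rose, beside 13.3% of all genes called in this contrast, so this role is near the background. Pde4d, a cAMP phosphodiesterase, went from 428 and 398 CPM to 1213 and 865 CPM (1.50 ± 0.33, adjusted p = 0.0114), and Arrb1, beta-arrestin 1, from 27.7 and 41.6 CPM to 71.1 and 80.5 CPM (1.33 ± 0.28, adjusted p = 0.00998). Pde3b was not called (-0.06, adjusted p = 0.934). Of 11 tested genes known to respond to thyroid hormone, 2 fell, beside the same 13.3% of all genes called. Srebf1, a transcription factor of lipogenic genes, went from 648 and 780 CPM to 162 and 231 CPM (-1.70 ± 0.31, adjusted p = 0.00455, edgeR). Acaca, an acetyl-CoA carboxylase, went from 1023 and 1294 CPM to 298 and 440 CPM (-1.49 ± 0.34, adjusted p = 0.0150, edgeR). Other genes of lipid synthesis in this role were not called. Scd1 was not called (0.46, adjusted p = 0.683), with 495 and 4171 CPM in the old replicates. Single calls also rested on the young libraries: those of Pde4d and Acaca were lost without either SAT 2-month library (Acaca also without SAT 24-month replicate 1), those of Sephs2 and Arrb1 without replicate 1 and that of Srebf1 without replicate 2. Without either SAT 2-month library fewer genes were called, both in the list and over all genes. Scaling by library size moved the median of all genes to -0.17 and gave 2 higher and 8 lower in the list (620 higher and 1213 lower over all genes, against 817 and 911). In the Gm31517-led cluster alone 7 of 45 genes were called (12.4% of all genes), with Pde4d and Arrb1 among the higher and Rxra, Acaca and Srebf1 among the lower, and without Sephs2 and Rxrg.

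Markers of other cell types moved with age in the same adipocyte sums. The 7 T-cell markers summed to 212 and 429 CPM at 2 months and to 25.4 to 47.7 CPM in SAT at 24 months, and 5 lymph node markers went from 171 to 306 CPM down to 19.8 to 35.9 CPM. The 6 mammary gland markers stood at 191 to 245 CPM at 2 months and at 623 to 655 CPM at 24 months in SAT. In VAT at 24 months they stood at 492 and 423 CPM, with 4 and 2 of the 6 detected. A few of these markers thus carry the sum. The 5 thyroid follicle markers were at 32.6 to 33.8 CPM and 5.12 to 11.7 CPM, with all, or all but Foxe1 or Duox2, detected. The part of these cells in the pathway calls was not tested. Between VAT and SAT at 24 months none of the 47 genes was called by edgeR (0.154% of all genes), 6 had an unadjusted p under 0.05, and DESeq2 called none.

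**Figure D5:**
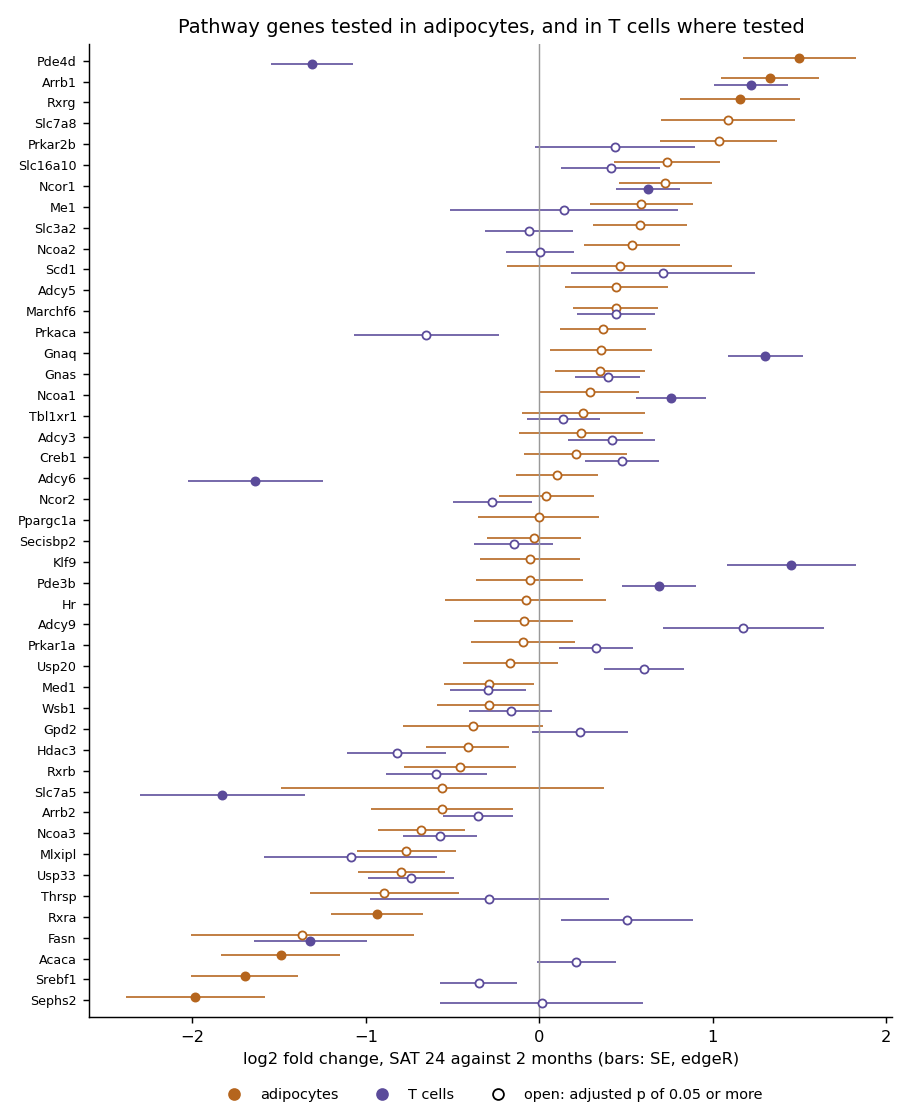
Log2 fold change (SAT at 24 against 2 months, with SE bars) of pathway genes tested in adipocytes, and of the same genes in T cells where tested, with filled points for an adjusted p under 0.05 and open points otherwise. In adipocytes 3 filled points lie right of zero and 4 left of it, and Pde4d is filled on opposite sides in adipocytes and T cells.

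In T cells 11 of 42 tested pathway genes were called with age in SAT, 26.2% beside 13.2% of 12333 genes, with 7 higher and 4 lower. Those higher included Gnaq, a G-protein alpha subunit (65.5 and 61.3 CPM against 134 and 173 CPM, 1.30 ± 0.21, adjusted p = 0.000299), Arrb1 (1.22 ± 0.21, adjusted p = 0.000545) and Klf9, a T3-responsive transcription factor (1.46 ± 0.37, adjusted p = 0.0126). Pde4d was lower (141 and 152 CPM against 52.5 and 63.2 CPM, -1.31 ± 0.24, adjusted p = 0.000708), as was Slc7a5, an amino acid and thyroid hormone transporter (-1.83 ± 0.48, adjusted p = 0.0141). These T-cell genes were picked from those called after their values were seen. Gnaq, Arrb1 and Pde4d were called in 8 of 9 alternatives, but Klf9 in 4 and Slc7a5 in 5, and the last 2 were lost with DESeq2 and without SAT 2-month replicate 2 or SAT 24-month replicate 1, Klf9 also without SAT 2-month replicate 1. In the Scart1-led cluster alone, whose share of T cells differed with age as given above, none of 34 tested genes was called by edgeR (1.71% of 7255 genes) and 5 had an unadjusted p under 0.05. There Gnaq differed by 0.24 ± 0.30, Arrb1 by 0.33 ± 0.28 and Pde4d by -0.63 ± 0.37.

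Other classes gave few pathway calls. In epithelial nuclei of SAT 2 of 45 genes rose with age (7.83% of all genes called), among them Arrb1 (1.00 ± 0.19, adjusted p = 0.00676). In mesothelial nuclei Arrb1 was lower in VAT than in SAT at 24 months (-5.33 ± 0.71, adjusted p = 0.00790), the only call among 28 genes (6.20% of all genes), and with age in SAT none of the 28 was called by edgeR or had an unadjusted p under 0.05 (0% of all genes called). With age in SAT none was called by edgeR in FAPs (0 of 41; 0% of all genes), macrophages (0 of 43; 0%), endothelial nuclei (0 of 40; 0.0254%), B cells (0 of 35; 0.912%) or all immune nuclei together (0 of 46; 0%), with 2 to 9 at an unadjusted p under 0.05 in each. Between depots none was called in these classes either (0% to 0.0235% of all genes), with 0 to 2 at an unadjusted p under 0.05. Only edgeR was run in these classes.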

How the data were processed

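Nuclei of inguinal SAT and gonadal VAT were isolated and barcoded by the authors with the Singleron GEXSCOPE kit and sequenced on an Illumina HiSeq X10; the labels' description field names another maker's platform. The deposited values are raw UMI counts per gene and barcode, made by the authors with Celescope on GRCm39; its version and whether counting used strand are not given in the sources used here. Gene positions come from GENCODE M39 and promoter windows from RefSeq.

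The study's stated limits were applied to each barcode: more than 500 genes, a UMI total above 1000, and a mitochondrial share below 15%. Nuclei were clustered with leidenalg 0.10.2 after a Harmony correction coded for this report, without the 4 genes, the pathway genes and Nr1d1. The settings were 1000 variable genes, 30 components, 20 neighbours and Leiden resolution 2. Clusters were named only from marker lists with at least 3 markers over 2-fold; the naming rule was revised once after the clusters were seen. Scrublet, run in scanpy 1.11.5, marked 0.133% of nuclei at its own threshold and so did not work. The main values keep all nuclei. UMIs were summed per class and library for classes with at least 20 nuclei. Sums were tested with edgeR 4.0.16 (R 4.3.3, quasi-likelihood, TMM, expression filter). Benjamini-Hochberg adjustment ran over all genes, with a threshold of 0.05. All groups with 2 such libraries entered 1 fit per class. These were all 3 groups in adipocytes, but only the SAT groups in T cells and epithelial nuclei. DESeq2 1.42.0 was an alternative. The test was also run on counts simulated from the means, depths and dispersions of these adipocyte sums. The pathway genes named are those called, plus the most abundant uncalled gene of each role; 1 listed gene counts in the totals but is not reported here. The members and lists were chosen with earlier results of these data known. With 2 libraries per group, p-values measure only the spread between these libraries, which the labels do not describe further.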

Additional observations from a re-analysis of the deposited data

Results flagged for a closer look

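Pde4d was higher with age in adipocytes of SAT (log2 fold change 1.50) and lower in T cells (-1.31), both called by edgeR; the difference between the classes itself was not tested. The call in adipocytes was lost without either SAT 2-month library, with adjusted p up to 0.1503 over the alternatives. In the Scart1-led cluster alone Pde4d differed by -0.63 ± 0.37 (adjusted p = 0.519), and in the Gm31517-led adipocyte cluster alone by 1.66 ± 0.36 (adjusted p = 0.00247), both by edgeR.

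The unnamed Ovgp1-led cluster of VAT 24 months replicate 2, which enters no comparison, held Tshr at 979 CPM, above the 18.8 CPM of the T cells of that library. It comes almost wholly from 1 library, so no second library gives a value.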

How the results depend on the processing

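Of the alternatives to the members' differences 78 of 84 moved the value by less than its SE. Of those to their levels 93 of 100 moved it by less than the SD over libraries. That SD covers libraries of all groups, so it includes their differences with age and depot. For Tshr it is wide in adipocytes (1037 CPM on a median of 1792 CPM) and in the other classes. This count therefore says little about how stable the Tshr levels are. The age difference of Tshr in adipocytes ranged from 3.44 to 4.51 when 1 library was left out and was 3.31 in the Gm31517-led cluster alone. Leaving out 1 library moved Thra with age between -0.33 and 0.70 and Thrb between depots between -0.43 and 0.23, so neither has a stable sign. Without Harmony the median level was 314 CPM for Tshr in macrophages, 22.0 CPM for Thra in B cells, 403 CPM for Thrb and 1.55 CPM for Dio2 in mesothelial nuclei, there over 2 libraries instead of 6, so that these medians are not over the same libraries; a mitochondrial limit of 5% gave 36.2 CPM for Thra in B cells. Thinning gave medians of 9.64% of adipocyte nuclei with Thra and 31.5% with Thrb. Pathway calls in adipocytes with age were 8 in the main fit, beside 13.3% of all genes. They were fewer without either SAT 2-month library, as were the calls over all genes. Between depots pathway calls were 0 in the main fit (0.154% of all genes) and 2 with no low-count filter (0.452%). In T cells they ranged from 4 (without SAT 24-month replicate 1) to 15 (without SAT 24-month replicate 2), were 6 with DESeq2 and 0 in the Scart1-led cluster alone, where fewer nuclei and genes were tested. Of all genes tested in T cells, 6.83% were called with DESeq2 and 1.71% in the Scart1-led cluster alone, beside 13.2% in the main fit. The share of all genes called was also lower without SAT 24-month replicate 1, and near that of the main fit without replicate 2. Both of these fits leave 1 library in a group, so nothing is read from their counts. The cluster-alone settings and the left-out clusters of 1 library were chosen after seeing the data. Libraries of the same replicate number did not deviate together (correlations of deviations from -0.0898 to 0.0749 over 12969 genes). This cannot tell whether libraries share animals. With the replicate block 10 pathway genes were called with age (15.2% of all genes) and 0 between depots (0.208%) in adipocytes. In T cells 11 were called with the block, as in the main fit (13.2% of all genes in the main fit). With 101 Dio2 UMIs in all nuclei, the depth limits what can be said of that gene.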

Other observations

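Around Thra, 30 genes within 1 Mb could be tested in adipocytes with age in SAT, and 1 was higher and 4 were lower (edgeR), beside 13.3% of all genes called in this contrast. Erbb2, a growth factor receptor, was higher (log2 fold change 3.15 ± 0.70, adjusted p = 0.0132, edgeR). In the same sums 8 epithelial markers stood at 212 and 303 CPM at 2 months and at 631 and 668 CPM at 24 months. The 6 mammary gland markers stood at 191 and 245 CPM and at 623 and 655 CPM. In VAT at 24 months the epithelial list stood at 495 and 450 CPM. The mammary list stood there at 492 and 423 CPM, the last from 2 detected markers. The part of these cells was not tested. Among those lower, Ikzf3 (-2.42) and Ccr7 (-2.87) are lymphocyte genes, Ccr7 also a marker of mature dendritic cells, and both the T-cell markers and the 5 mature dendritic cell markers (70.0 and 160 against 35.22 and 29.997 CPM) were lower in the same sums at 24 months; this was not tested either. Around Dio2, 6 genes were tested, and 1 was higher (Cep128, described above) and 1 lower, beside 13.3% of all genes called. The lower was Nrxn3, a neuronal adhesion protein (-1.69, adjusted p = 0.0181, edgeR). Around Thrb none of 6 tested genes was called by edgeR, and none around any of the 4 genes between depots. The genes named here were chosen after their values were seen.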
